A study of Homo sapiens with 6 samples.

Results

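The genes described here encode the NF-kB transcription factor subunits (NFKB1, NFKB2, REL, RELA and RELB) and proteins that restrain them (NFKBIA, NFKBIB, NFKBIE, BCL3 and TNFAIP3). They were taken by name, as every probe set whose annotated symbol is exactly one of these 10, which gave 22 of the 49293 probe sets that are not array controls. RNA came from MDA-MB-231, an established human triple-negative breast cancer line with mesenchymal features, grown in DMEM/F12 with 10% serum. The SAHA group had 3 arrays of cells given 5 µM SAHA for 8 h, and the DMSO group had 3 arrays of cells given only the solvent for as long. SAHA, or vorinostat, blocks zinc-dependent histone deacetylases. Whether replicates of a group were separate cultures is not stated, so the p-values reflect no more than the spread between these arrays, which may be technical.

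NF-kB proteins act as pairs that bind DNA through a shared Rel homology domain. RELA, RELB and REL carry an activation domain, whereas NFKB1 and NFKB2 encode the precursors p105 and p100, which are cut to the DNA-binding subunits p50 and p52. The precursors and the IκB proteins hold the pairs in the cytoplasm until the IκB kinase marks IκB for destruction, and several of these genes are themselves switched on by NF-kB, which closes a feedback loop. MDA-MB-231 cells are known for NF-kB activity without an added stimulus, and RELA is itself a substrate of acetyltransferases and deacetylases.

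The promoters are shown first because NF-kB binding sites in them are the known basis of that feedback. Capitals mark matches to the kappaB consensus, searched on both strands, and sequences and positions are those of RefSeq on build GRCh38.p14. The first 3 stretches end 1 base before the gene's first listed start, and the last 3 are 30 bases around a match.
NFKB1, chr4:102501109-102501358, plus strand: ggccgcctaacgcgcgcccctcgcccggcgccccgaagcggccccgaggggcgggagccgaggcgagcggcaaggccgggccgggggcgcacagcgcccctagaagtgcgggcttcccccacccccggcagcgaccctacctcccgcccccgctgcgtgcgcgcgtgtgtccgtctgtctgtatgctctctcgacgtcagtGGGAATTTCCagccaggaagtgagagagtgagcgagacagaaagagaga
REL, chr2:60881424-60881573, plus strand: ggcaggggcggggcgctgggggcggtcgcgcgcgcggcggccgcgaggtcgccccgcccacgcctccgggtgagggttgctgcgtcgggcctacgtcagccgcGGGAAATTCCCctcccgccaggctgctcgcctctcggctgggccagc
NFKBIA, chr14:35404750-35404999, minus strand: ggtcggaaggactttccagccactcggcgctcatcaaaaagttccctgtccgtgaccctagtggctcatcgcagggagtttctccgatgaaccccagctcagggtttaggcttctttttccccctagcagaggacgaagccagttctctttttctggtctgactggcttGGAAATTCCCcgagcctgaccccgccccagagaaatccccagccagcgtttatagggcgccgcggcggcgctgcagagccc
NFKB2, chr10:102394462-102394491, plus strand: aaacgtcatGGGAATTCCCCcctccggggg
NFKBIB, chr19:38899932-38899961, plus strand: ggcgtggtgGGGAATTTCCCgcagggcgga
TNFAIP3, chr6:137867188-137867217, plus strand: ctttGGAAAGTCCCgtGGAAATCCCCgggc

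The RefSeq promoter table held windows for 8 of the 10 genes, 13 windows in all, each from 250 bases before to 50 bases after a start. RELB and NFKBIE were not in it. The consensus matched in 8 of these 13 windows and in 7 of the 8 genes, all but RELA. Among all 35116 windows, 11.3% held a match, and 13.3% of the 27305 genes had one in any of their windows. Matches that overlap by all but 1 base on opposite strands, as in REL, NFKB2 and NFKBIB, were counted separately. The exact letters of the NFKB1 match, GGGAATTTCC, looked for after the windows had been read, were present on one strand or the other in 4 of the 8 genes (NFKB1, REL, NFKBIA and NFKBIB). Over all 27305 genes 49 held them (0.179%), and these 49 include the 4. NFKB1 holds the letters by the way they were chosen, so the 2 shares are not a test of enrichment. The consensus with its inner bases left free was in all 8 genes, but also in 61.7% of all genes. A match is a description of letters and not a measured binding site.

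**Figure D1:**
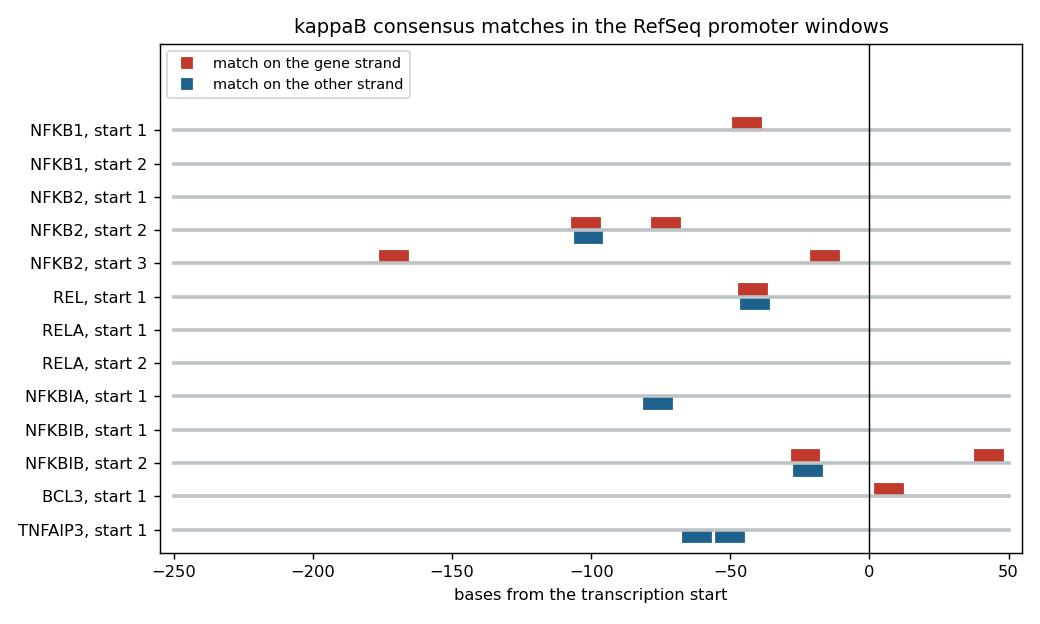
Matches to the kappaB consensus in the 13 RefSeq promoter windows of 8 genes, as boxes above the line (gene strand) or below it (other strand), against bases from the transcription start. Matches lie within about the last 110 bases before the start in NFKB1, REL, NFKBIA, TNFAIP3 and the second of 3 windows of NFKB2, and neither RELA window holds one.

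With SAHA, the 2 precursor genes went in opposite directions. NFKB1 fell to 22.2% of its DMSO level and NFKB2 rose 1.98-fold, while the main activating subunit RELA was not called in any of its 3 probe sets, of which the dimmest was called lower in 3 of 19 other settings. REL, NFKBIE and TNFAIP3 rose by 1.45-fold, 1.31-fold and 1.51-fold. RELB, NFKBIA and BCL3 passed the test with small differences whose calls were lost in 11 of 23, 16 of 23 and 15 of 22 other settings, and NFKBIB gave mixed calls. Values are log2 expression values as deposited, differences are SAHA minus DMSO on the log2 scale with limma's standard error (n = 3 per group), and each adjusted p comes from limma with Benjamini-Hochberg adjustment over all 49293 probe sets. A gene or probe set was called when its adjusted p was under 0.05, and a gene was represented by the brightest of its probe sets.

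By the brightest probe set 8 of the 10 genes were called, 6 higher and 2 lower. Across the array 47.3% of 18132 genes were called, 24.1% higher and 23.2% lower, and among the 8605 genes with a mean log2 value of 7 or more the share was 73.7%. Of the 22 probe sets 12 were called, 8 higher and 4 lower, where 46.4% of all probe sets were called. The SAHA and DMSO values did not overlap in 8 of the 10 genes and in 16 of the 22 probe sets. Across the array they did not overlap in 55.5% of genes and 54.4% of probe sets, and in 84% of genes at 7 or more. The numbers of genes called and of genes with groups apart are therefore close to what genes of this brightness gave in general. Only the size and direction of single members are described below, and groups lying apart adds little where a probe set was not called. The calls of 5 genes (NFKB1, NFKB2, REL, NFKBIE and TNFAIP3) held in every setting that gave them a value, other than tests against a minimum fold. REL, with a mean log2 value of 6.62, was not tested under the filter at 7. Without SAHA replicate 2, SAHA replicate 3 or DMSO replicate 2, 5 of the 10 genes were called. Across the array 7814, 7798 and 8039 genes were then called, in place of 8568. Centred on ribosomal protein genes, which raises the median of all genes by 0.117, 12 probe sets were again called, 11 higher and 1 lower. They were not the same 12: RELB and NFKBIB lost their calls, and further probe sets of NFKBIA and BCL3 gained one. With poly-A spike-ins as the centre, which raises it by 0.145, 9 probe sets were called, 8 higher and 1 lower, and in both settings 6 of the genes were higher and 1 lower.

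Arrays of a group were alike over all probe sets, with Pearson's r of 0.9976 to 0.9979 between SAHA arrays and 0.9968 to 0.9973 between DMSO arrays, against 0.9685 to 0.9696 between the groups. Of 5 genes known to be high in this line, 3 were called lower, 1 higher and 1, the mesenchymal marker VIM, was not called, at a mean log2 value of 14.02 in SAHA arrays and 13.96 in DMSO arrays. CAV1 differed by -0.71, CD44 by -0.57 and MSN by -0.27, and ANXA1 by 0.25. Of 8 luminal markers 4 were called lower, GATA3 by -1.23, EPCAM by -0.93, FOXA1 by -0.78 and KRT18 by -0.55. The other 4 were not called: KRT8 averaged 10.42 in SAHA arrays and 10.28 in DMSO arrays, and ESR1, CDH1 and PGR averaged 6.01, 4.17 and 3.38 in SAHA arrays and 5.98, 4.20 and 3.29 in DMSO arrays. The mean level of the luminal list was 6.90 to 6.98 in SAHA arrays and 7.31 to 7.37 in DMSO arrays. Of 4 leukocyte markers, with a mean level of 4.13 to 4.20 in SAHA arrays and 3.91 to 4.03 in DMSO arrays, CD14 was higher by 1.01 and CD3E differed by -0.25, and PTPRC and HLA-DRA were not called. The part of these markers in the results was not tested. The 3' minus 5' difference of ACTB, a control for transcript integrity, was 0.61 ± 0.06 in SAHA arrays and 0.89 ± 0.16 in DMSO arrays (SD, n = 3 each). A two-sided exact permutation test gave p = 0.1, and 3 arrays against 3 cannot give less. That of GAPDH went the other way, at 0.06 ± 0.02 in SAHA arrays and 0.03 ± 0.02 in DMSO arrays (SD, n = 3 each; exact permutation p = 0.1). Adjusted over 4 such array controls, both were at p = 0.2 in the exact permutation test. With the ACTB difference as a covariate the 5 genes named above were still called and the other 5 were not. Across the array 6187 genes were called with this covariate, in place of 8568.

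**Figure D2:**
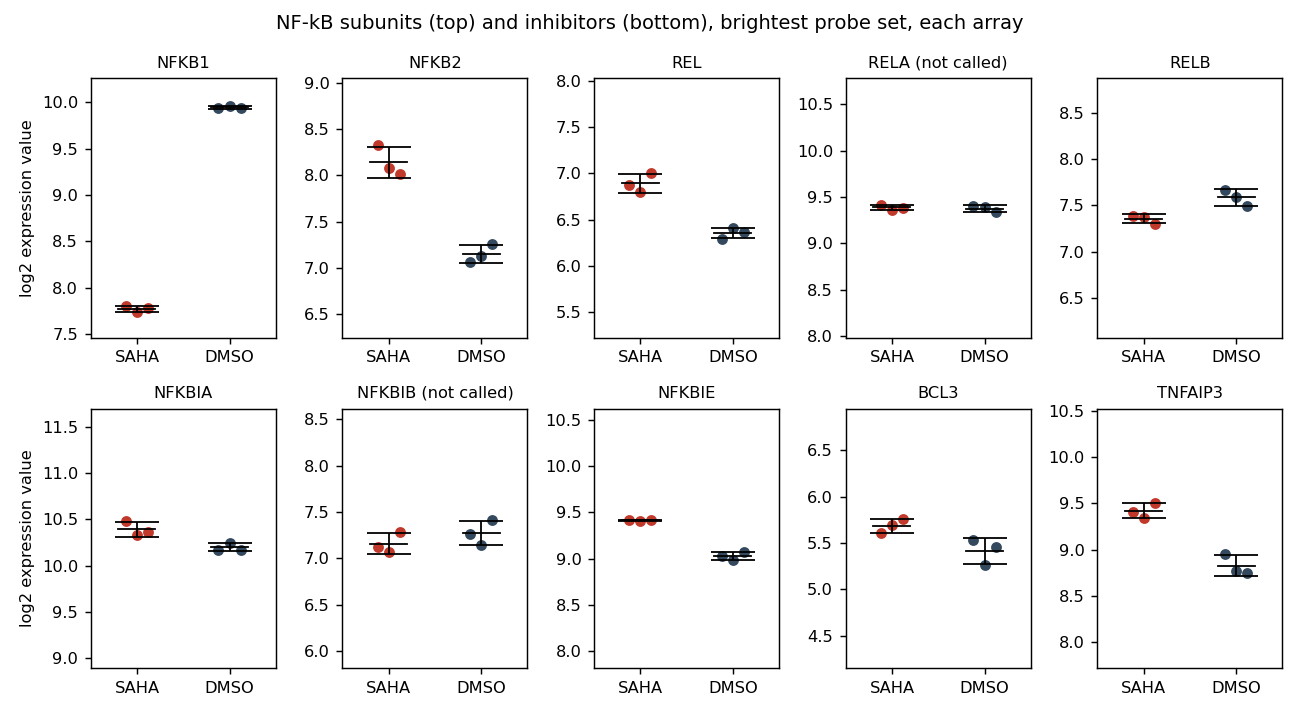
Log2 expression values of the brightest probe set of each gene on each array (points), with mean and SD (bars), SAHA left and DMSO right. Every panel spans the same range of log2 units; the NFKB1 groups lie furthest apart, and the groups overlap in RELA and NFKBIB.

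Among the subunits, NFKB1 had the largest difference. Its single probe set (11717542_a_at) was at 7.80, 7.74 and 7.78 in SAHA arrays, against 9.94, 9.96 and 9.94 in DMSO arrays. All 3 SAHA values lay more than 2 log2 units under every DMSO value, and the values within each group were nearly equal. The difference was -2.17 ± 0.06 (95% interval -2.30 to -2.04, adjusted p = 2.4e-07), the 75th lowest of 18132 genes. It stayed between -2.19 and -2.03 in all 23 other settings and was the one member still called against a minimum of 2-fold. With 1 probe set, NFKB1 could not be checked in another. In bulk RNA, fewer cells with a transcript and less of it per cell cannot be told apart.

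NFKB2, the other precursor gene and the substrate of the non-canonical pathway, was at 8.33, 8.09 and 8.01 in SAHA arrays, against 7.07, 7.13 and 7.26 in DMSO arrays. The groups did not overlap, with a gap of more than 0.7 log2 units between the lowest SAHA and the highest DMSO array. The difference was 0.99 ± 0.10 (95% interval 0.76 to 1.21, adjusted p = 6.97e-05), also from a single probe set (11725153_a_at). Levels of different probe sets are not comparable, so the level of one precursor gene is not set against the other.

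REL encodes c-Rel, a subunit best known from lymphocytes. Its brighter probe set (11750334_a_at) was at 6.87, 6.80 and 7.005 in SAHA arrays, against 6.29, 6.41 and 6.37 in DMSO arrays. Its dimmer one (11736551_x_at) was at 5.63, 5.35 and 5.65 in SAHA arrays, against 5.20, 5.10 and 5.07 in DMSO arrays. Both moved the same way without overlap, by 0.54 ± 0.07 (adjusted p = 0.000455) and 0.42 ± 0.09 (adjusted p = 0.00586).

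RELA encodes p65, the activating partner in the most common NF-kB pair. Its brightest probe set (11745440_s_at) was at 9.42, 9.36 and 9.39 in SAHA arrays, against 9.40, 9.39 and 9.33 in DMSO arrays, and the groups overlapped. The difference was 0.01 ± 0.06, with a 95% interval of -0.12 to 0.15 (adjusted p = 0.875). Its dimmer probe sets gave -0.13 ± 0.08 (adjusted p = 0.216) and -0.22 ± 0.09 (adjusted p = 0.0663), and in both every SAHA value lay under every DMSO value. A change of RELA of the size seen in NFKB1 or NFKB2 lies outside the intervals of all 3 probe sets, but the dimmest one was called lower in 3 of 19 other settings. It was at -0.30 (adjusted p = 0.0208) without DMSO replicate 2, at -0.26 (adjusted p = 0.0366) with quantile normalization repeated, and at -0.22 (adjusted p = 0.0398) with probe sets of a mean log2 value under 5 left out.

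RELB, the activating partner of p52 in the non-canonical pathway, was at 7.39, 7.38 and 7.30 in SAHA arrays, against 7.67, 7.59 and 7.49 in DMSO arrays. The groups did not overlap, and the difference was -0.23 ± 0.07 (adjusted p = 0.0253), which is 14.7% lower. The call was lost without SAHA replicate 2 (-0.24) or 3 (-0.20) and without DMSO replicate 1 (-0.19) or 2 (-0.23). Centred on poly-A spike-ins it was -0.08 (adjusted p = 0.605), and with the ACTB covariate -0.10 (adjusted p = 0.545).

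**Figure D3:**
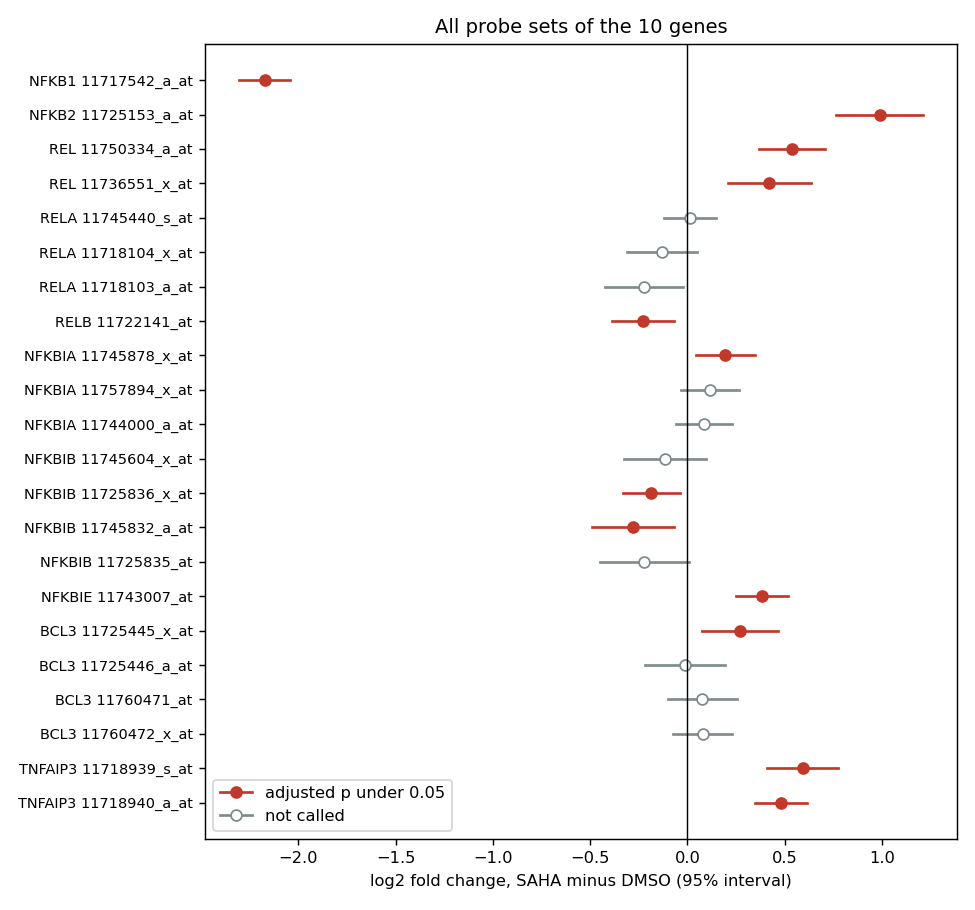
Log2 fold change, SAHA minus DMSO, of all 22 probe sets with limma's 95% interval, filled where the adjusted p was under 0.05. NFKB1 at -2.17 and NFKB2 at 0.99 lie apart from the rest, which run from -0.28 to 0.59.

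Among the inhibitors, TNFAIP3 rose the most. It encodes A20, a ubiquitin-editing enzyme that shuts off signalling upstream of the IκB kinase. Its brighter probe set (11718939_s_at) was at 9.41, 9.34 and 9.50 in SAHA arrays, against 8.95, 8.78 and 8.75 in DMSO arrays. Its other one (11718940_a_at) was at 8.47, 8.44 and 8.42 in SAHA arrays, against 8.01, 7.94 and 7.94 in DMSO arrays. The groups were apart in both, by 0.59 ± 0.08 (adjusted p = 0.000383) and 0.48 ± 0.06 (adjusted p = 0.000216).

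NFKBIE encodes IκBε, a classical cytoplasmic inhibitor. Its single probe set (11743007_at) was at 9.42, 9.40 and 9.42 in SAHA arrays, against 9.03, 8.99 and 9.07 in DMSO arrays. The SAHA values were within 0.02 of each other and all above the DMSO values. The difference was 0.38 ± 0.06 (adjusted p = 0.000739), or 30.5% higher.

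NFKBIA encodes IκBα, the inhibitor that NF-kB itself induces most directly and whose promoter is printed above. Its brightest probe set (11745878_x_at) was at 10.48, 10.33 and 10.37 in SAHA arrays, against 10.17, 10.25 and 10.17 in DMSO arrays. The groups were apart by little, and the difference was 0.20 ± 0.07 (adjusted p = 0.0425). The other probe sets gave 0.12 ± 0.06 (adjusted p = 0.184) and 0.08 ± 0.06 (adjusted p = 0.324), again with every SAHA value above every DMSO value. Groups were apart, in either direction, in 54.4% of all probe sets. The call was lost whichever array was left out, with differences of 0.15 to 0.23, and with the replicate number as a block (adjusted p = 0.0945).

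NFKBIB, which encodes IκBβ, had lower mean values in SAHA arrays in every probe set. Its 4 probe sets gave -0.12 ± 0.09 (adjusted p = 0.351), -0.19 ± 0.06 (adjusted p = 0.0435), -0.28 ± 0.09 (adjusted p = 0.0349) and -0.22 ± 0.10 (adjusted p = 0.106), from the brightest to the dimmest. In the brightest (11745604_x_at) the values were 7.13, 7.06 and 7.28 in SAHA arrays, against 7.26, 7.15 and 7.41 in DMSO arrays, and the groups overlapped. The first of the called ones (11725836_x_at) lost its call in 15 of 19 other settings, whichever array was left out and with the replicate block (adjusted p = 0.0842). In the second (11745832_a_at) the groups overlapped, with SAHA replicate 1 at 7.160 and DMSO replicate 1 at 7.157. It lost its call in 11 of 20 other settings, among them the replicate block (adjusted p = 0.0787). The call was also lost without SAHA replicate 2 (-0.24) or 3 (-0.25) or DMSO replicate 2 (-0.25) or 3 (-0.24). With the mean of its probe sets NFKBIB was called, at -0.20 (adjusted p = 0.0105 in the fit over genes). After centring on ribosomal protein genes or on poly-A spike-ins the brightest was at 0.00 and 0.03, so its direction depends on the scaling.

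BCL3 encodes a nuclear IκB family member that binds p50 and p52 pairs and can activate as well as repress. Its brightest probe set (11725445_x_at) was at 5.61, 5.70 and 5.75 in SAHA arrays, against 5.53, 5.26 and 5.46 in DMSO arrays. The groups were apart by less than 0.1 log2 units, and the difference was 0.27 ± 0.08 (adjusted p = 0.0313). The other 3 probe sets, at mean log2 values of 4.06 to 4.93, gave -0.012 to 0.08 and were not called, with overlapping groups. The array's 23 background controls had a median of 3.26 and reached 10.46. Its call was lost without SAHA replicate 2 (0.26) or 3 (0.24) and without DMSO replicate 2 (0.19) or 3 (0.29), and with the replicate number as a block (adjusted p = 0.055).

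Members with a promoter match were found in both directions. A match was present in 7 of the 8 genes with windows, so directions with and without a match cannot be compared. NFKB1, REL and NFKBIB hold the letters GGGAATTTCC, on one strand or the other, within 50 bases before a listed start. NFKB1 and REL differed by -2.17 and 0.54, and the NFKBIB probe sets by -0.12 to -0.28. NFKB2, TNFAIP3 and REL, which were called higher in every probe set, each had a consensus match, as did NFKB1, which was called lower. NFKBIA and BCL3, whose higher calls were lost in most settings, also had one. NFKBIB had matches too, with lower values whose calls were mixed and whose direction in the brightest probe set depended on the scaling.

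**Figure D4:**
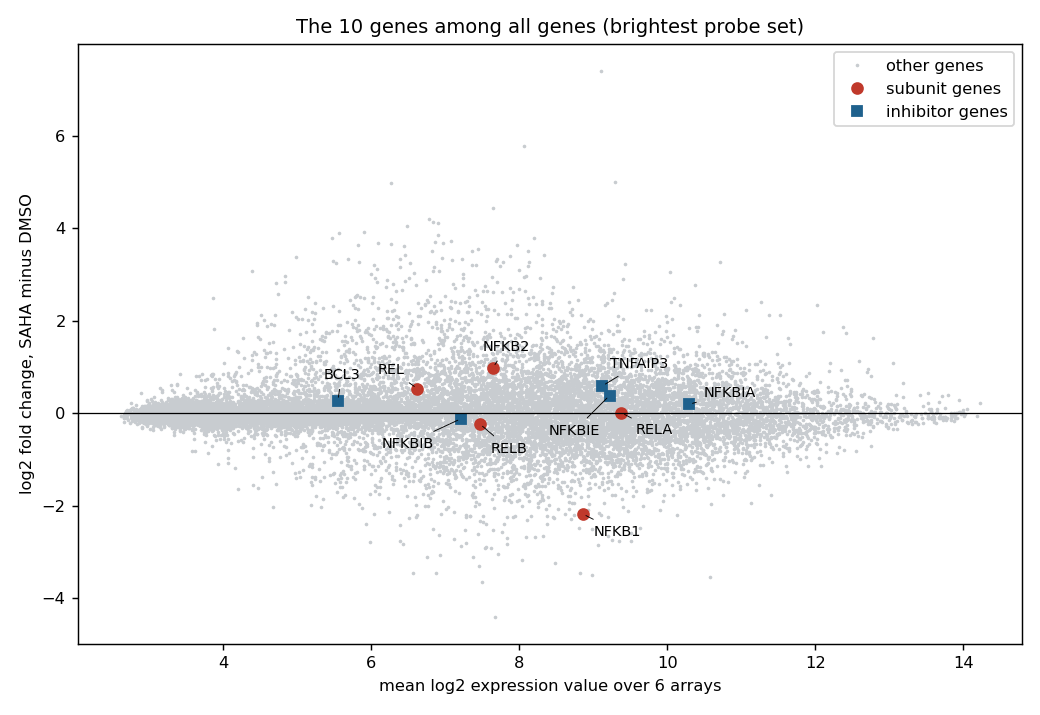
Log2 fold change, SAHA minus DMSO, against mean log2 expression value for all 18132 genes (grey), with the 5 subunit genes (circles) and 5 inhibitor genes (squares) named. NFKB1 lies at the lower edge of the cloud at its brightness, and the other members lie inside it.

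The gene profiles closest to NFKB1 over the 6 arrays, by the root mean square difference of log2 values after each was centred on its own mean, were those of CGAS (0.0133) and MEPCE (0.0190). CGAS encodes a sensor of cytosolic DNA and MEPCE the enzyme that caps 7SK RNA. CGAS was at 6.18 ± 0.02 in SAHA arrays and 8.37 ± 0.01 in DMSO arrays, and MEPCE at 7.64 ± 0.02 in SAHA arrays and 9.83 ± 0.02 in DMSO arrays (SD, n = 3 each). NFKB1 was the one member with a called difference of at least 1 log2 unit, so no other was searched for. With 2 groups of 3 arrays, this likeness mostly reflects a similar difference between groups.

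Other genes of the pathway were read from 6 lists written from textbook knowledge, with 106 of 119 genes measured by a probe set that names the gene alone. Of these 82 (77.4%) were called, 46 higher and 36 lower, with a median difference of 0.06 against -0.01 over all genes. The share among all genes with a mean log2 value of 7 or more was 73.7%.

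Of 19 receptors and adaptors, 10 fell, 6 rose and 3 did not pass (median -0.36). LTBR, the lymphotoxin β receptor that feeds the non-canonical pathway of NFKB2 and RELB, was at 7.28, 7.13 and 7.14 in SAHA arrays, against 9.52, 9.49 and 9.70 in DMSO arrays. It fell by 2.39 ± 0.08 (adjusted p = 4.82e-07), and by 1.67 in its dimmer probe set. MYD88, the adaptor of toll-like and interleukin 1 receptors, fell by 1.195 ± 0.06, lower in all 5 of its probe sets. IL1RAP, the accessory chain of the interleukin 1 receptor, rose by 1.65 ± 0.07, though only by 0.50 in its next brightest probe set. Of its 4 probe sets 2 were called, both higher. BCL10, which links receptors to the IκB kinase, rose by 0.94 ± 0.06.

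Of 13 kinases at and above the IκB kinase complex, 5 rose, 4 fell and 4 did not pass (median 0.20). MAP3K3 rose by 0.74 ± 0.06, while IRAK1, a kinase downstream of MYD88, fell by 0.84 ± 0.07 and TAB2, which brings TAK1 to ubiquitin chains, by 0.56 ± 0.06. Of the IκB kinase subunits, CHUK was at 0.39, IKBKB at -0.10 and IKBKG at 0.20 in their brightest probe sets. Of these only CHUK passed (adjusted p = 0.00379 against 0.361 and 0.0574). Among all their probe sets, 1 of 11 for IKBKB and 1 of 8 for IKBKG were called, both lower.

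Another list held 10 genes of ubiquitin ligase or conjugating complexes that act on IκB, on p100 and p105 or on upstream signalling. Of these 4 fell, 3 rose and 3 did not pass (median -0.17). CUL1, the scaffold of the ligase that recognises phosphorylated IκB, was at 8.13, 7.99 and 7.77 in SAHA arrays, against 10.65, 10.74 and 10.80 in DMSO arrays. It fell by 2.77 ± 0.10 (adjusted p = 5.99e-07), with -2.76 in its other probe set, more than any subunit gene. BTRC, the F-box protein that reads the phosphorylated IκB, rose by 0.60 ± 0.06 and the adaptor SKP1 by 0.35 ± 0.07, and the RING subunit RBX1 fell by 0.54 ± 0.06.

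Of 18 further negative regulators, 8 rose, 4 fell and 6 did not pass (median 0.16). NFKBIZ, a nuclear IκB family member close in kind to BCL3, was at 12.36, 12.52 and 12.52 in SAHA arrays, against 10.01, 10.02 and 10.18 in DMSO arrays. Its rise of 2.40 ± 0.08 (adjusted p = 4.31e-07) was larger than that of any of the 10 genes. NFKBIZ is also in the list of textbook target genes, as is TNIP1 below, so neither change is read as that of an inhibitor. TRAFD1 rose by 1.26 ± 0.06, and TNIP1, a partner of A20, fell by 0.80 ± 0.07 in its brightest probe set and was lower in all 8. PDLIM2, a ligase that removes nuclear RELA, fell by 1.45 ± 0.07, while its other probe set was at 0.19, with an adjusted p = 0.14 in the fit over genes.

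Of 38 textbook target genes, 23 rose, 9 fell and 6 did not pass (median 0.42). CCL20, a chemokine, rose by 7.39 ± 0.13 and ICAM1, an adhesion receptor for leukocytes, by 2.65 ± 0.06. PLAU, which encodes urokinase, fell by 2.65 ± 0.07 and the cytokine LIF by 2.24 ± 0.06, or by 1.35 with the mean of its probe sets. These genes have other regulators too, and NF-kB activity was not measured on these arrays.

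**Figure D5:**
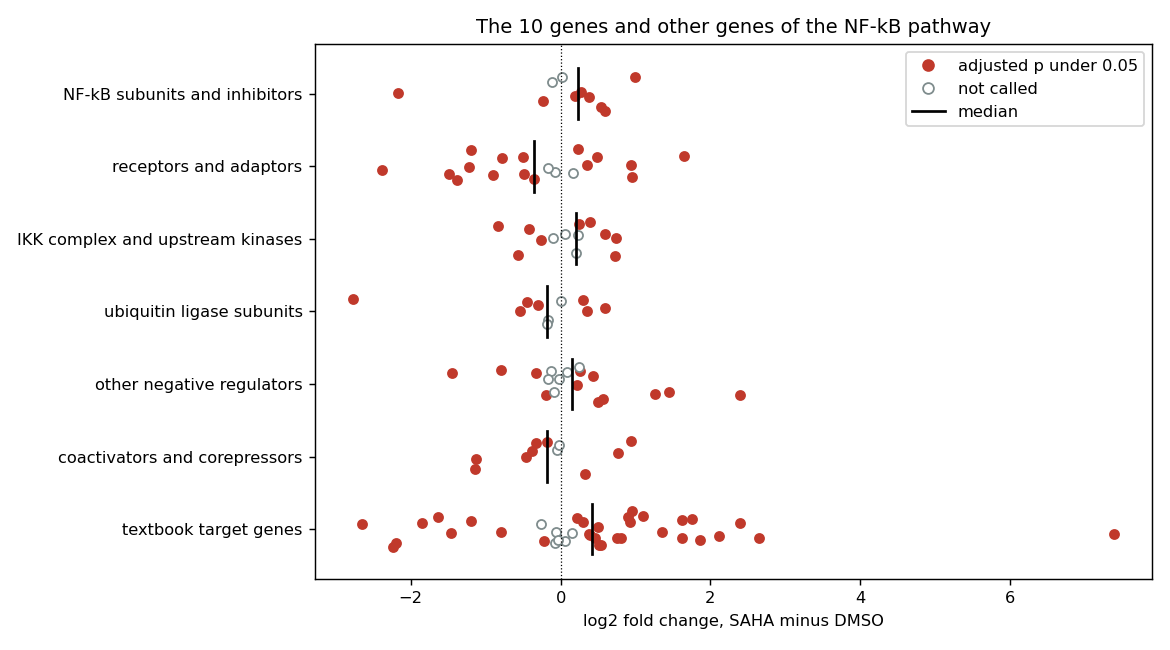
Log2 fold changes, SAHA minus DMSO, of the 10 genes (top row) and of the genes in 6 pathway lists, with the median of each row as a bar and called genes filled. Genes lie on both sides of 0 in every row; CCL20 is the point at 7.39.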

How the data were processed

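Biotin-labelled cRNA was hybridized to Affymetrix PrimeView arrays. The authors deposited log2 values, 1 for each probe set and array, which they made with RMA, per the submitters' processing notes. The sources used here give neither its version nor a genome build. RMA gives the probe intensities of all arrays the same distribution before they are summarized, so a change common to most transcripts would not show. With 3 arrays per group, precision is limited by their number.

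The table held 49395 probe sets, of which 102 array controls were left out of the tests. Symbols came from the platform annotation, and all 10 members matched a RefSeq table by Entrez identifier. The test was limma 3.58.1 (R 4.3.3; lmFit, eBayes, two-sided, no covariates or filter), which was tested on simulated data first. A gene's value is that of its brightest probe set among those naming that gene alone. Probe sets ending in _x_at or _s_at can match similar transcripts.

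The members and lists were chosen with earlier results of these data known. All members are named. In each list the 3 genes of smallest p are named, and, of called genes that moved against most of the list, the 2 of smallest p. For members called at 1 log2 unit or more, the 2 genes with the closest profile are named. Other genes named with values were chosen after those were seen. The settings tried were a block for the replicate number, gene-level tests (brightest, mean, second brightest probe set), filters at mean log2 values of 5 and 7, no _x_at or _s_at probe sets, repeated quantile normalization, centring on ribosomal protein genes or spike-ins, array weights, moderation with trend and robust, the ACTB difference as a covariate, an adjusted p under 0.01, treat (limma) against 1.2-fold and 2-fold, and leaving out each array.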

Additional observations from a re-analysis of the deposited data

How the results depend on the processing

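The 10 genes had 8 calls, the 22 probe sets 12 and the 106 other pathway genes 82. Leaving out 1 array gave 5 to 7 calls among the genes, 7 to 10 among the probe sets and 77 to 79 among the pathway genes. Calls over all 18132 genes fell as well, from 8568 to between 7798 and 8289. The genes had 5 calls after centring on hybridization spike-ins, with the ACTB covariate and at a threshold of 0.01, 4 with treat at 1.2-fold and 1, NFKB1, with treat at 2-fold. In the same order, 8077, 6187, 7057, 5166 and 1007 of all genes were called. The probe sets had 7 calls with the ACTB covariate and at 0.01, 5 with treat at 1.2-fold and 1 at 2-fold, where the pathway genes had 22. Without _x_at and _s_at probe sets the member probe sets also had 7 calls, but fewer of them were tested there, so this count is not a loss of calls alone. In the other settings the counts stayed within 1.5 times. BCL3 was at -0.012 without _x_at and _s_at probe sets and in its second brightest probe set, and PDLIM2 at 0.19 in its second brightest. The causes were not tested. Over all genes, 4370 were called higher and 4198 lower, against 5895 and 3296 after centring on ribosomal protein genes and 5231 and 2566 after centring on poly-A spike-ins. NFKBIA lost its call in 16 of 23 settings, BCL3 lost it in 15 of 22 and RELB in 11 of 23. Replicate numbers did not pair the arrays: deviations from the group means correlated at -0.0967, -0.0792 and -0.0349 between arrays of the same number. With the replicate number as a block 6 genes, 8 probe sets and 79 pathway genes were called, and 8023 of all genes.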

Other observations

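Genes that modify chromatin or RELA as partners of NF-kB also moved both ways. Of 11 coactivators and corepressors measured, 6 fell, 3 rose and 2 did not pass limma's test (median -0.18). That is 81.8% called, where 47.3% of all genes and 73.7% of those with a mean log2 value of 7 or more were called. The acetyltransferase genes CREBBP and KAT5 fell by 1.14 ± 0.09 (adjusted p = 2.52e-05) and 1.13 ± 0.07 (adjusted p = 6.5e-06). CREBBP was at -0.80 with the mean of its probe sets and at -0.57 without _x_at and _s_at probe sets. EP300, which encodes the acetyltransferase closest to that of CREBBP, was at -0.46 (adjusted p = 0.0175). HDAC3, which encodes a deacetylase known to act on RELA, rose by 0.94 ± 0.06 (adjusted p = 1.08e-05), and the coactivator gene NCOA1 by 0.77 ± 0.07 (adjusted p = 4.07e-05). HDAC1 rose by 0.33 ± 0.06 (adjusted p = 0.00165) and was called higher in 2 of its 3 probe sets. HDAC2 at -0.05 and SIRT1 at -0.02 did not pass (adjusted p = 0.544 and 0.82). With the ACTB difference as a covariate, 5 of the 11 were called in place of 9, and 6187 of all genes in place of 8568.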
